A study of Mus musculus with 12 samples.

Results

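The Toll-like receptor genes Tlr1, Tlr2, Tlr3, Tlr4, Tlr5, Tlr6, Tlr7, Tlr8, Tlr9 and Tlr13 were followed through inflamed mouse colon, 10 of the 54109 genes in the count table. They were taken by symbol, after the table's Ensembl identifiers had been matched to the GENCODE M21 annotation of GRCm38. Tlr5 was chosen by a measured value, the difference of its knockout effect between the 2 tissues, and the others as listed members of the family, which leaves out Tlr11 and Tlr12. The knockout effects of Tlr5 are therefore described below without a test, and support nothing else.

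All libraries came from mice with acute colitis caused by dextran sulfate sodium (DSS), a polymer that injures the colonic epithelium. Gpr15l-/- mice (KO), which lack a secreted ligand of the T cell homing receptor Gpr15, were compared with wild-type mice (WT). Bulk RNA-seq was done on full colon and on LPMC (lamina propria mononuclear cells, leukocytes isolated from the gut wall), with 3 libraries of each genotype in each material. The labels give no strain, age or sex and no group without DSS, and they are silent on whether replicates are different mice, so that a p-value here measures library-to-library spread, which may be technical.

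Toll-like receptors are membrane proteins that recognise conserved microbial molecules through an ectodomain of leucine-rich repeats and signal through an intracellular TIR domain. Tlr1, Tlr2, Tlr4, Tlr5 and Tlr6 act at the cell surface on bacterial lipoproteins, lipopolysaccharide and flagellin, whereas Tlr3, Tlr7, Tlr8, Tlr9 and Tlr13 act in endosomes on nucleic acids. Apart from Tlr3, which signals through Ticam1 (TRIF), they use the adaptor Myd88, and the pathway ends in NF-kB, AP-1 and interferon regulatory factors that switch on cytokine genes.

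Library depth ran from 45.4 M to 140.7 M counts (M for mega, the SI prefix), and all 10 receptor genes passed the filter on low counts in every comparison. The deleted gene, listed as 2610528A11Rik, held 15639 to 80362 counts in the WT libraries and 4 to 20 in the KO libraries, so each library matched its genotype label. The LPMC label was met only in part. The 8 T cell markers summed to 47.2 to 198 CPM (counts divided by the library total in M, with TMM factors over all 12 libraries) in LPMC and to 4.55 to 41.3 CPM in colon, yet 10 epithelial markers still summed to 11717 to 16958 CPM in LPMC, against 20154 to 39327 CPM in colon. In bulk RNA, fewer cells of a type and less RNA per cell cannot be told apart.

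All 10 genes are protein coding. Tlr1 (chr5:64924679-64933563) and Tlr6 (chr5:64952031-64960097) lie side by side on the minus strand of chromosome 5 and share sequence, which limits how their reads can be told apart. Of the 3282 stretches of 100 bases in Tlr1 transcripts, 259 (7.89%) were also found in Tlr6, and the same 259 make up 7.09% of those of Tlr6. At 50 bases Tlr1 shared 513 of 3332 stretches (15.4%), 454 of them with Tlr6, and 307 other genes, Tlr6 included, held such a stretch. Their coding sequences were identical at 72.8% of aligned bases, the closest pair among the 10 genes. The longest shared run, 229 coding bases at chr5:64925537-64925765 in Tlr1 and chr5:64953828-64954056 in Tlr6, is shown in capitals with 30 bases on each side, 5′ to 3′ on the minus strand, from the GENCODE M21 transcripts.
Tlr1: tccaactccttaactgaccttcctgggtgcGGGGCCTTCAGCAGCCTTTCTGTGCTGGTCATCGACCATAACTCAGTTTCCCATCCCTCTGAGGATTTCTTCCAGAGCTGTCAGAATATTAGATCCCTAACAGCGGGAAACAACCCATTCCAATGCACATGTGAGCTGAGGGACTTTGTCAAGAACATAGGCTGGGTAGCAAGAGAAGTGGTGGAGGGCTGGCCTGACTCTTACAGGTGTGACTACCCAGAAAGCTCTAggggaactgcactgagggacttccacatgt
Tlr6: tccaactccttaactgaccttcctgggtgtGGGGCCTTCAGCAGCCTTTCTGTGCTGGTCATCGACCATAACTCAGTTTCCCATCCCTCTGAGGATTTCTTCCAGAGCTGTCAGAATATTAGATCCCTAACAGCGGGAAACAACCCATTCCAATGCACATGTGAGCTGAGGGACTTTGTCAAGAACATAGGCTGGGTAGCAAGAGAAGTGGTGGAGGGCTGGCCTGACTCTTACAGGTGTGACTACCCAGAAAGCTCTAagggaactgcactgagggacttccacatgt
The bases on both sides of the run are close to identical as well. Reads inside the run match both genes equally, and since Tlr1 was far more abundant than Tlr6 the level of Tlr6 is the less certain of the pair.

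Of the other 8 genes, Tlr3 (chr8:45395665-45411080) shared 188 stretches of 100 bases (3.32%), all with Gm45542, a predicted gene on the opposite strand that overlaps it by 381 exonic bases. Gm45542 had at most 1 count in any library. Tlr2 (chr3:83836272-83841767), Tlr4 (chr4:66827584-66930284), Tlr5 (chr1:182954788-182976044), Tlr7 (chrX:167304929-167330558), Tlr8 (chrX:167242696-167264329), Tlr9 (chr9:106222598-106226883) and Tlr13 (chrX:106143204-106160493) shared none of 100 bases. At 50 bases Tlr4 alone among these shared any, 12 stretches (0.216%) with 2 other genes.

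The RefSeq promoter table of GRCm38.p6, with 250 bases before and 50 after each start, held entries for 8 of the 10 genes, all but Tlr4 and Tlr7. These windows were searched on both strands for letters associated with factors of the pathway and of myeloid cells. They were the NF-kB motif, present in 8.46% of all 32851 promoter windows, the IRF motif, GAAA followed by 2 bases of any kind and GAAA again (3.44%), the AP-1 motif TGANTCA (7.81%) and the PU.1 motif GAGGAAGT (3.20%). Windows of Tlr2 and Tlr3 held the NF-kB motif, 1 of Tlr6 the IRF motif in a pair of overlapping copies, 1 of Tlr1 the PU.1 motif, and that of Tlr9 the PU.1 and AP-1 motifs. Tlr2 and Tlr5 are surface receptor genes that were higher in LPMC, as was Tlr6, whose windows are not printed. Below are the promoters of Tlr2 (chr3:83841599-83841858, minus strand) and Tlr5 (chr1:182954538-182954797, plus strand), from 250 bases before to 10 bases after the start, with NF-kB matches in capitals.
Tlr2: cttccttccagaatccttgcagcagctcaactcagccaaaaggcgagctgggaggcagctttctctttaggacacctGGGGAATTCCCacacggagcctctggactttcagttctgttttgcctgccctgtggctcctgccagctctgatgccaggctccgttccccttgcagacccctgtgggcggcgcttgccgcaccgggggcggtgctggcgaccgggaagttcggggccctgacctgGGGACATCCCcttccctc
Tlr5: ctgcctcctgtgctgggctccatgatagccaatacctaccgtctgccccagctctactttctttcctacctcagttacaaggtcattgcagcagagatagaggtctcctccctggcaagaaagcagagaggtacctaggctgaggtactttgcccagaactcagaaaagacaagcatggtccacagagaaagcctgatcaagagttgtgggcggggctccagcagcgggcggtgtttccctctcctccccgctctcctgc
The Tlr2 window held matches at 2 places, and none of the letters searched occur in the Tlr5 window. A match describes letters only and was not tied to binding here.

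The first question was which receptors these tissues hold. Lengths differ between genes, so levels of different genes were compared as RPKM (CPM per kilobase of exons). Tlr1 and Tlr2 led in all 4 groups, followed by Tlr3 and Tlr4, and the other 6 genes were below 3 RPKM on average in every group. In colon WT the mean was 26.6 ± 7.06 RPKM (SD, n = 3) for Tlr1, 9.01 ± 2.22 for Tlr2, 6.29 ± 1.54 for Tlr3 and 4.91 ± 0.556 for Tlr4. Tlr9 (1.23 ± 1.88), Tlr7 (0.674 ± 0.733), Tlr13 (0.644 ± 0.290) and Tlr6 (0.527 ± 0.415) came next, and Tlr5 (0.101 ± 0.0324) and Tlr8 (0.0788 ± 0.0329) stood last. Only 3 steps in that order exceeded the spread of the libraries, those from Tlr1 to Tlr2, from Tlr4 to Tlr9 and from Tlr6 to Tlr5.

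In colon KO the order of the leading 4 was the same, with Tlr1 at 26.5 ± 0.810 RPKM (SD, n = 3), Tlr2 at 12.1 ± 3.70, Tlr3 at 7.66 ± 0.802 and Tlr4 at 6.86 ± 1.47. Ranges did not overlap between Tlr1 and Tlr2, between Tlr2 and Tlr3, or between Tlr4 and Tlr13 (0.929 ± 0.696). The 6 scarce genes, from Tlr13 down to Tlr8 (0.299 ± 0.209), overlapped each with the next. Among the library totals of the 10 genes' RPKM, Tlr1 made up 40.5 to 60.6% in colon and 23.5 to 31.0% in LPMC.

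In LPMC the leading pair changed places. LPMC WT held 20.1 ± 1.78 RPKM (SD, n = 3) of Tlr2 and 16.1 ± 0.729 of Tlr1, without overlap, then 6.57 ± 1.85 of Tlr3 and 4.35 ± 0.666 of Tlr4. Tlr13 (1.73 ± 0.508), Tlr9 (1.32 ± 0.694), Tlr7 (1.06 ± 0.397), Tlr5 (1.02 ± 0.144) and Tlr6 (0.883 ± 0.157) followed with overlapping ranges, above Tlr8 (0.428 ± 0.181). In LPMC KO the means ran in the same order, from Tlr2 (19.0 ± 4.76) and Tlr1 (13.7 ± 2.03) down to Tlr8 (0.779 ± 0.380), and the only step between neighbours without overlap was that from Tlr1 to Tlr3. Tlr5 therefore ranked 9 of 10 in both colon groups and 8 of 10 in both LPMC groups.

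**Figure D1:**
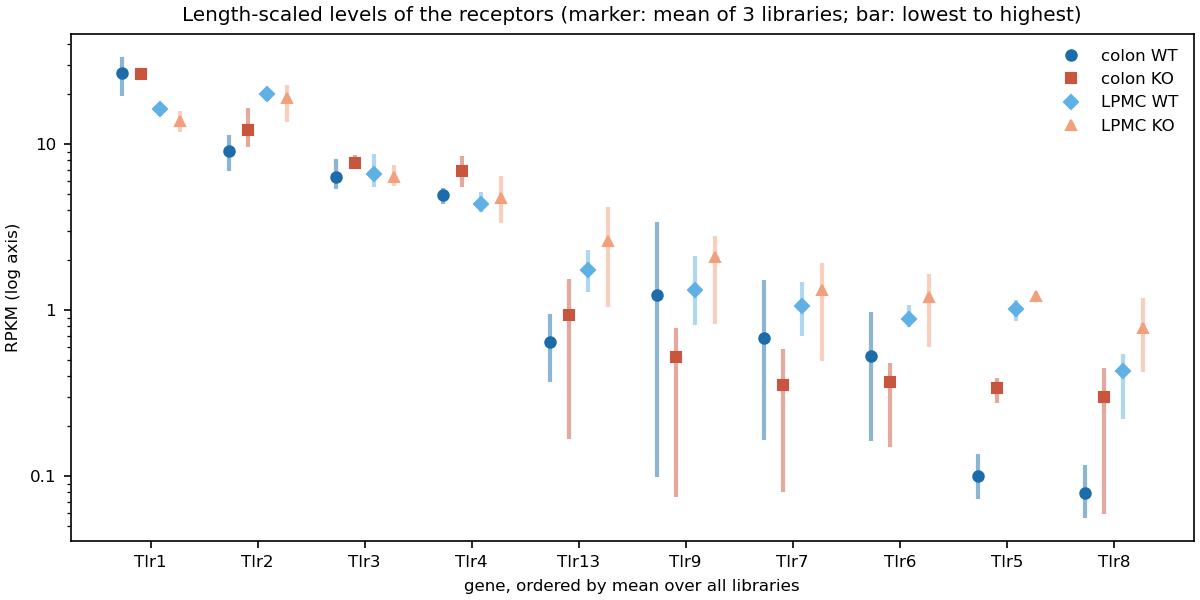
Mean RPKM of the 10 receptor genes in each of the 4 groups on a log axis, as a marker with a bar from the lowest to the highest of 3 libraries. Tlr1 leads in colon (26.6 and 26.5 RPKM) and Tlr2 in LPMC (20.1 and 19.0 RPKM), and Tlr8 is the lowest in every group.

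The comparison of LPMC with colon, averaged over both genotypes, asked where each receptor is expressed. LPMC held more Tlr2, Tlr5, Tlr6, Tlr8 and Tlr13 and less Tlr1, and Tlr3, Tlr4, Tlr7 and Tlr9 did not pass. By edgeR's quasi-likelihood test with Benjamini-Hochberg adjustment, 6 of the 10 genes passed an adjusted p of 0.05, 5 higher and 1 lower, and DESeq2 also called 6. The share called among all 20989 genes tested was 50.3% (25.4% higher, 24.9% lower), so 6 of 10 is near the background. The median log2 fold change was 1.13 over the 10 genes and 0.01 over all genes. Since the mean over genotypes is a contrast separate from the one that chose Tlr5, all 10 genes were tested.

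Tlr1, which pairs with Tlr2 to bind triacylated lipoproteins, was the only receptor that passed with a lower level in LPMC. Colon held 112, 64.9 and 90.3 CPM of Tlr1 in WT and 89.3, 90.7 and 85.5 CPM in KO, and LPMC held 53.0, 52.2 and 56.8 CPM in WT and 53.0, 39.4 and 45.2 CPM in KO. Every LPMC library lay below every colon library, as was the case for 13.2% of all genes. On the log2 scale the difference was -0.84 (SE 0.13, adjusted p = 0.000377).

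Tlr2 itself, which recognises lipoproteins together with Tlr1 or Tlr6, moved the other way. It stood at 26.4, 34.2 and 20.8 CPM in colon WT and at 28.7, 31.6 and 49.3 CPM in colon KO, against 65.6, 61.3 and 55.0 CPM in LPMC WT and 67.8, 41.0 and 63.2 CPM in LPMC KO. The tissues overlapped only through colon KO replicate 3 and LPMC KO replicate 2. Tlr2 differed by 0.91 on the log2 scale (SE 0.18, adjusted p = 0.00193). It passed in WT libraries alone (1.14, adjusted p = 0.00826) and not in KO libraries alone (0.65, adjusted p = 0.131).

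Tlr6, the partner of Tlr2 for diacylated lipoproteins, was scarce and variable. Its levels were 3.65, 1.65 and 0.602 CPM in colon WT, 1.75, 0.555 and 1.79 CPM in colon KO, 3.97, 2.93 and 2.97 CPM in LPMC WT and 4.90, 2.22 and 6.17 CPM in LPMC KO. Colon WT replicate 1 reached into the LPMC range. The log2 fold change of 1.22 (SE 0.45, adjusted p = 0.0403) was close to the threshold, and it passed in only 3 of the 12 fits without 1 library, those without colon WT replicate 1, colon KO replicate 3 or LPMC KO replicate 2 (adjusted p 0.00975 to 0.0934 over the 12). Neither genotype alone gave a call (WT 0.72, adjusted p = 0.406; KO 1.69, adjusted p = 0.0710).

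Tlr4, which senses lipopolysaccharide together with Ly96 (MD-2) and Cd14, did not pass. Colon held 30.2, 27.5 and 24.1 CPM in WT and 36.7, 30.7 and 46.9 CPM in KO, and LPMC held 21.6, 22.5 and 28.4 CPM in WT and 18.7, 35.6 and 24.0 CPM in KO. The tissues overlapped. Between the tissues Tlr4 differed by -0.36 on the log2 scale (SE 0.17, adjusted p = 0.0988), which passed only without LPMC KO replicate 2 (-0.50, adjusted p = 0.0198).

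Tlr5, the receptor of bacterial flagellin, had the largest difference between tissues among the 10 genes. It stood at 0.652, 0.348 and 0.444 CPM in colon WT (54, 15 and 31 counts) and at 1.31, 1.86 and 1.66 CPM in colon KO (122, 114 and 248 counts). LPMC WT held 5.05, 4.11 and 5.46 CPM, and LPMC KO 5.71, 5.80 and 5.85 CPM, with 280 to 785 counts per library. Every LPMC library lay above every colon library, as for 14.5% of all genes. LPMC exceeded colon by 2.58 on the log2 scale (SE 0.21, adjusted p = 6.31e-06 by edgeR). The same difference was 3.31 in WT libraries alone and 1.84 in KO libraries alone, which is a description, since the gap between them is the value that chose the gene. Without any 1 of the 12 libraries it ran from 2.50 to 2.73.

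Among the receptors of nucleic acids, Tlr3, which binds double-stranded RNA, did not pass between tissues. Its levels were 42.0, 28.5 and 27.8 CPM in colon WT and 37.0, 38.0 and 44.7 CPM in colon KO, and 28.7, 28.7 and 45.3 CPM in LPMC WT and 31.3, 38.7 and 29.1 CPM in LPMC KO. All 12 values lay between 27.8 and 45.3 CPM, with the tissues overlapping. Its log2 fold change was -0.11 (SE 0.16, adjusted p = 0.603).

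Tlr7 and Tlr8, neighbouring genes on the X chromosome whose products recognise single-stranded RNA and its breakdown products, differed in their calls. Tlr7 stood at 6.18, 1.39 and 0.673 CPM in colon WT, 1.63, 0.326 and 2.36 CPM in colon KO, 6.05, 2.82 and 4.10 CPM in LPMC WT and 6.21, 2.02 and 7.88 CPM in LPMC KO. Colon WT replicate 1 was as high as the upper LPMC libraries, and the log2 fold change of 1.27 (SE 0.60, adjusted p = 0.101) did not pass, but did without that library (1.98, adjusted p = 0.0126). Tlr8 stood at 0.229, 0.418 and 0.201 CPM in colon WT (14 to 19 counts), 1.40, 0.212 and 1.60 CPM in colon KO, 1.87, 0.787 and 1.95 CPM in LPMC WT and 2.65, 1.51 and 4.22 CPM in LPMC KO. All 3 colon WT values and that of colon KO replicate 2 lay below all LPMC values. The log2 fold change of Tlr8 was 1.91 (SE 0.49, adjusted p = 0.00719), and it passed in all 12 fits without 1 library, but not in KO libraries alone (1.37, adjusted p = 0.21).

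Tlr9, the receptor of unmethylated CpG DNA, varied most in colon. It stood at 11.8, 0.650 and 0.344 CPM in colon WT, 2.71, 0.261 and 2.43 CPM in colon KO, 7.33, 3.58 and 2.83 CPM in LPMC WT and 9.05, 2.84 and 9.75 CPM in LPMC KO. Colon WT replicate 1 was the highest of all 12 libraries, while the other 5 colon libraries lay below every LPMC library. The log2 fold change of 1.05 (SE 0.83, adjusted p = 0.32) did not pass, and without colon WT replicate 1 it was 2.61 and passed (adjusted p = 0.00643).

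Tlr13, a mouse receptor of bacterial ribosomal RNA, stood at 2.68, 4.06 and 1.58 CPM in colon WT and 4.68, 0.718 and 6.59 CPM in colon KO, and at 9.83, 5.54 and 6.99 CPM in LPMC WT and 11.2, 4.47 and 18.1 CPM in LPMC KO. The tissues overlapped through the 2 higher colon KO libraries. The log2 fold change was 1.46 (SE 0.50, adjusted p = 0.0297). The call was lost in 5 of the 12 fits without 1 library, those without colon WT replicate 1, colon WT replicate 3, colon KO replicate 1, LPMC WT replicate 1 or LPMC KO replicate 3, and also without the filter on low counts (1.44, adjusted p = 0.0524) and in KO libraries alone (1.48, adjusted p = 0.219).

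**Figure D2:**
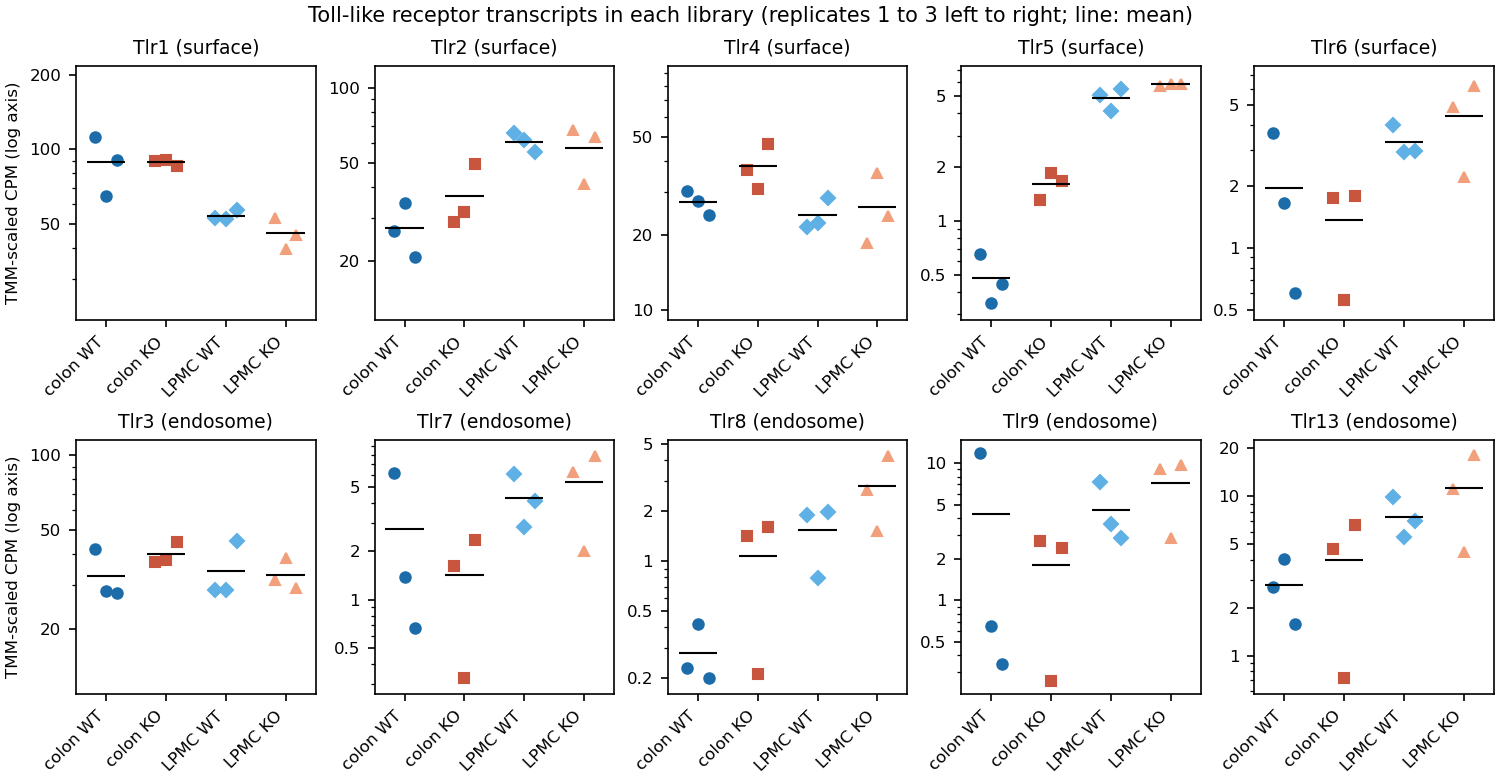
CPM of each receptor gene in each of the 12 libraries on log axes, with the surface receptors in the upper panels, the endosomal ones in the lower panels and a line at each group's mean. For Tlr5 the 6 LPMC values (4.11 to 5.85 CPM) lie above all colon values, and for Tlr1 they lie below (39.4 to 56.8 CPM).

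Cell type markers moved between the tissues too. In LPMC all 8 T cell markers were higher by the same test, where 25.4% of all genes were higher and 24.9% lower. So were 4 of 8 dendritic cell, 4 of 6 endothelial and 5 of 8 fibroblast and smooth muscle markers. Of 10 epithelial markers 7 were lower. Of 6 plasmacytoid dendritic cell markers 4 were higher and 1 lower, of 10 neutrophil markers 2 and 1. Of 5 Paneth cell markers tested 1 was higher and 1 lower. Of 8 B cell markers 0 passed, although all 8 log2 fold changes were positive (median 1.78). The B cell sum was 53.2 to 308 CPM in LPMC and 842 CPM in colon WT replicate 1. In every other colon library it was at most 19.6 CPM. The macrophage and monocyte list, the usual source of many of these receptors, had 1 of 12 markers higher and 1 lower, with sums of 125 to 474 CPM in colon and 167 to 576 CPM in LPMC. Dendritic cell markers summed to 6.25 to 39.3 CPM in colon and 47.9 to 188 CPM in LPMC, and no marker of either list was at 0 in any library. Within LPMC the dendritic sum ranged 3.92-fold, the macrophage sum 3.45-fold and Tlr5 1.42-fold. Over all cell type lists the range of the sum within LPMC ran from 1.45-fold (epithelial) to 9.76-fold (neutrophil). The part of these cells in the receptor differences was not tested.

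Genes induced when tissue is taken apart also separated the tissues. All 10 immediate early and heat shock genes of a list added after values had been seen were higher in LPMC, with a median log2 fold change of 4.20. Their summed level was 464 to 1228 CPM in colon and 10942 to 16597 CPM in LPMC. Its part in the receptor levels and in the pathway genes below was not tested.

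The comparison of KO with WT in colon asked what loss of Gpr15l does to the receptors in the inflamed tissue. None of the 9 receptor genes tested passed edgeR's test, 1 (Tlr8) had an unadjusted p under 0.05, and DESeq2 called 0. Among all 19303 genes 0.00518% passed, which is the deleted gene alone, and 7.79% had an unadjusted p under 0.05. The largest value tested was that of Tlr8, at 1.93 on the log2 scale (SE 0.75, adjusted p = 0.632), as colon KO replicates 1 and 3 were above colon WT and replicate 2 was within its range.

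Tlr4 was higher in each colon KO library than in any colon WT library, by a narrow margin (30.7 against 30.2 CPM). Such separation with KO higher was seen in 7.79% of all genes. Its log2 fold change was 0.47 (SE 0.21, adjusted p = 0.636). The 8 fibroblast and smooth muscle markers summed to 1122 to 1486 CPM in colon KO and 475 to 1122 CPM in colon WT, so that the groups met at 1122 CPM, and their part in this difference was not tested. Tlr1 (-0.02, SE 0.22), Tlr2 (0.41, SE 0.28) and Tlr3 (0.27, SE 0.22) did not pass, with overlapping groups and adjusted p of 0.979, 0.696 and 0.737.

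In colon WT, Tlr5 averaged 0.482 ± 0.155 CPM (SD, n = 3), and in colon KO 1.61 ± 0.277 CPM (SD, n = 3). The lowest KO library held 1.31 CPM and the highest WT library 0.652 CPM, so the groups did not overlap. The log2 fold change was 1.71 (SE 0.40), and without any 1 of the 6 libraries it ran from 1.54 to 2.01. In LPMC the means were 4.88 ± 0.692 CPM in WT and 5.79 ± 0.0724 CPM in KO, again without overlap, at 0.24 on the log2 scale (SE 0.19) and a range of 0.14 to 0.33 without 1 library. The effect in LPMC minus that in colon was -1.48 (SE 0.40), with a range of -1.77 to -1.3. Groups separated with KO higher in 7.79% of all genes in colon and in 3.66% in LPMC. These values of Tlr5 chose the gene, so they carry no test and nothing is read from them. Marker sums separated these colon groups as well. The T cell sum was 4.55 to 9.43 CPM in colon KO and 11.6 to 41.3 CPM in colon WT, and 5 of its 8 markers had an unadjusted p under 0.05, although 0 passed edgeR's test. The neutrophil sum was 261 to 461 CPM in colon KO and 555 to 781 CPM in colon WT, mostly from 1 gene, Ly6g (247 to 338 CPM and 426 to 583 CPM), which stood at 1.45 to 6.67 CPM in LPMC, while S100a9 overlapped between the groups. Their part in the difference of Tlr5 was not tested.

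The values of Tlr9, Tlr7 and Tlr6 turned sign without colon WT replicate 1. With all libraries Tlr9 was at -1.27 (SE 1.36), Tlr7 at -0.96 (SE 0.95), Tlr6 at -0.55 (SE 0.72) and Tlr13 at 0.51 (SE 0.74), with adjusted p of 0.781 to 0.853. Without colon WT replicate 1 the log2 fold change was 1.86 for Tlr9, 0.48 for Tlr7 and 0.28 for Tlr6, while Tlr13 (0.50) and Tlr8 (1.81) stayed close to their values with all libraries. Tlr13 was at -0.035 without colon KO replicate 3. Colon WT replicate 1 held 842 CPM summed over 8 B cell markers, whereas the other 5 libraries of colon held 2.07 to 19.6 CPM. In colon WT replicate 2, 1 of the 8 markers was at 0. Tlr9 was highest in the same library, at 11.8 CPM, and ranged from 0.261 to 2.71 CPM elsewhere in colon. Colon WT replicate 3 and colon KO replicate 1 held 0.344 and 2.71 CPM of Tlr9, with B cell sums of 14.9 and 19.6 CPM. Their macrophage and monocyte sums (205 and 366 CPM) and dendritic cell sums (16.4 and 24.6 CPM) differed as well. Among the colon libraries, colon WT replicate 1 also held the highest T cell sum (41.3 CPM, against 4.55 to 12.3 CPM). Its macrophage and monocyte (474 CPM), dendritic cell (39.3 CPM) and endothelial sums (83.3 CPM) were the highest in colon too. Its other cell type sums, such as neutrophil (555 CPM) and epithelial (30394 CPM), lay within the range of the other colon libraries. The part of B cells and of these other cells in the levels of Tlr9 and Tlr7 was not tested.

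**Figure D3:**
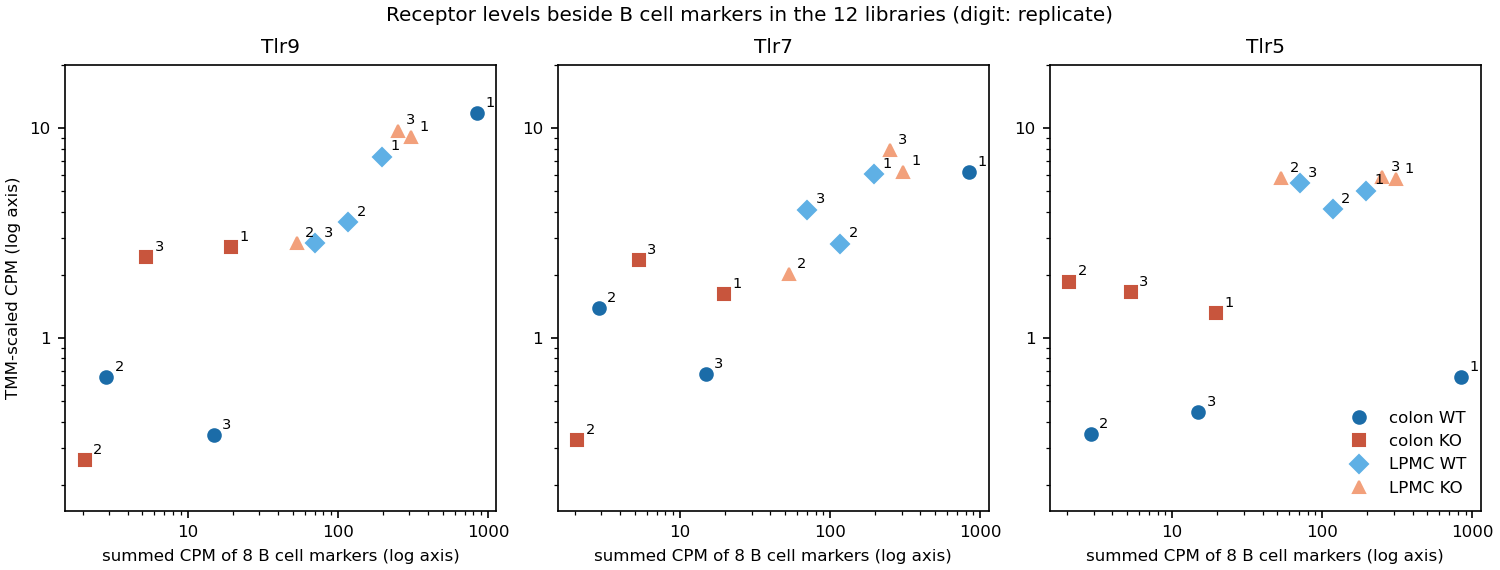
CPM of Tlr9, Tlr7 and Tlr5 plotted against the summed CPM of 8 B cell markers in each of the 12 libraries, on log axes. Colon WT replicate 1 stands apart at 842 CPM of B cell markers, with 11.8 CPM of Tlr9.

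The spread within a tissue differed by receptor. In colon the highest library exceeded the lowest 1.61-fold for Tlr3, 1.73-fold for Tlr1, 1.95-fold for Tlr4 and 2.36-fold for Tlr2. The same ratio was 5.34 for Tlr5, 6.57 for Tlr6, 7.97 for Tlr8, 9.18 for Tlr13, 18.9 for Tlr7 and 45.2 for Tlr9. In LPMC all 10 ratios lay between 1.42 (Tlr5) and 5.37 (Tlr8). Colon KO replicate 2 held the lowest level of Tlr6, Tlr7, Tlr9 and Tlr13 among the 12 libraries. Tlr1 to Tlr4 in it lay within the range of the other colon libraries. Its macrophage and monocyte (125 CPM), dendritic cell (6.25 CPM) and B cell sums (2.07 CPM) were also the lowest of the 12. So were its T cell (4.55 CPM) and endothelial sums (27.0 CPM), while its epithelial sum (39327 CPM) was the highest. The part of these cells in the receptor levels was not tested.

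In LPMC, loss of Gpr15l was compared in the same way. Among the 9 receptor genes tested 0 passed edgeR's test, 0 had an unadjusted p under 0.05 and DESeq2 called 0, where 0.0103% of 19426 genes passed and 2.64% had an unadjusted p under 0.05. The log2 fold changes ran from -0.24 (Tlr1, SE 0.13) to 0.87 (Tlr8, SE 0.51), all with an adjusted p of 0.998. Tlr6 (0.43, SE 0.40), Tlr7 (0.32, SE 0.54), Tlr9 (0.66, SE 0.56) and Tlr13 (0.60, SE 0.51) were positive, Tlr2 (-0.08, SE 0.20) and Tlr3 (-0.06, SE 0.21) negative, and Tlr4 was at 0.10 (SE 0.25).

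LPMC KO replicate 2 lay apart from the other 2 KO libraries. It held the lowest Tlr1, Tlr2, Tlr6, Tlr7, Tlr8, Tlr9 and Tlr13 levels of the 3 and the highest Tlr3 and Tlr4 levels. Its sums of macrophage and monocyte (167 CPM), neutrophil (81.3 CPM), dendritic cell (47.9 CPM) and B cell markers (53.2 CPM) were likewise the lowest of the 3, as was that of fibroblast and smooth muscle markers (966 CPM, against 3247 and 3440 CPM). The sums of epithelial markers (16156 CPM) and plasmacytoid dendritic cell markers (1097 CPM) were the highest of the 3. So was that of the immediate early and heat shock genes (16597 CPM, against 10942 and 10957 CPM). The plasmacytoid sum came mostly from 1 gene, Klk1, which reached 1026 CPM in LPMC KO and held 97.6 to 398 CPM in colon. Siglech, another gene of that list, was at most 7.28 CPM in LPMC and 0.528 CPM in colon. LPMC KO replicates 1 and 3 held 494 and 576 CPM of macrophage and monocyte markers, above all LPMC WT libraries (182 to 348 CPM). Their neutrophil sums (640 and 420 CPM, against 65.5 to 132 CPM) were above LPMC WT too. The same held for B cell (308 and 250 CPM, against 70.6 to 197 CPM) and T cell sums (198 and 137 CPM, against 76.8 to 112 CPM). Their dendritic cell sums (155 and 186 CPM) lay within the LPMC WT range (66.3 to 188 CPM).

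The interaction asked whether the effect of the knockout differed between the tissues. Of the 9 receptor genes tested 0 passed edgeR's test, 0 had an unadjusted p under 0.05 and DESeq2 called 0. Among all 20989 genes 0% passed and 4.69% had an unadjusted p under 0.05. The largest values tested were those of Tlr9 (1.90, SE 1.66), Tlr7 (1.24, SE 1.19) and Tlr8 (-1.09, SE 0.95), with adjusted p of 0.908, 0.915 and 0.907. The first of these turned to -1.23 without colon WT replicate 1, and Tlr7 to -0.19.

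**Figure D4:**
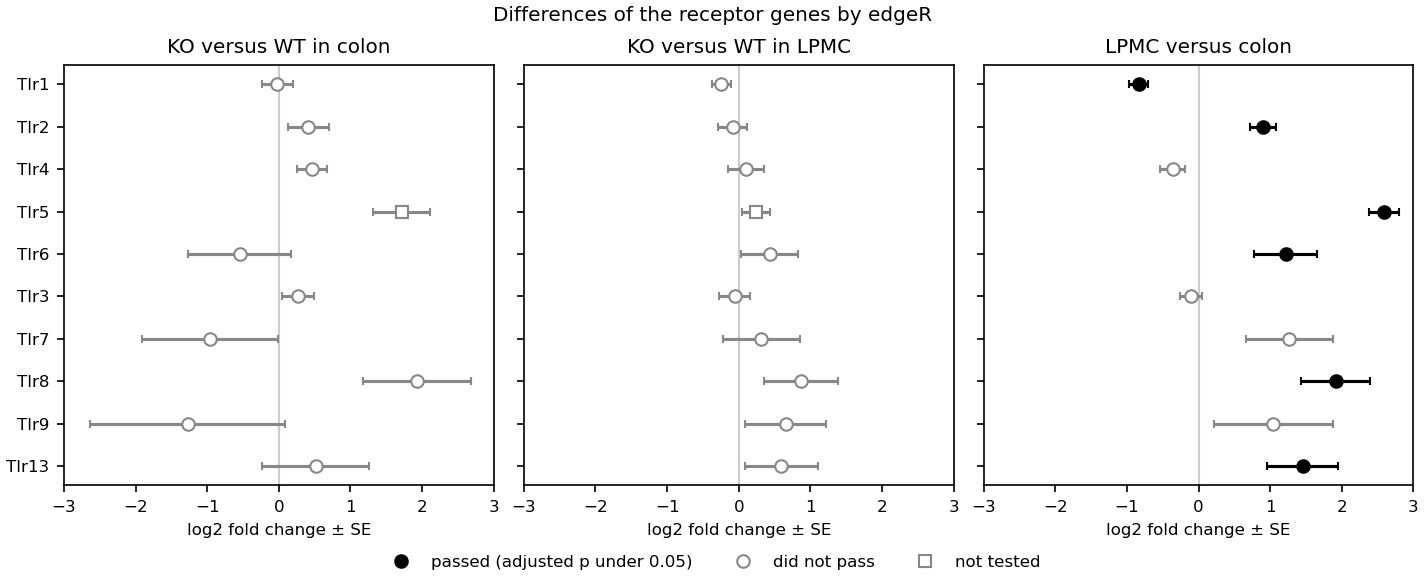
Log2 fold change with its standard error for each receptor gene in the 3 comparisons, with filled points for genes that passed an adjusted p of 0.05 and open squares where no test was made. Between LPMC and colon 6 genes passed, with Tlr5 at 2.58 and Tlr1 at -0.84, and no gene tested passed between KO and WT.

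The rest of the pathway was read from 6 lists with 78 genes. Between LPMC and colon 37 of them were higher and 13 lower, with a median log2 fold change of 0.44, against 25.4% and 24.9% of all genes. Receptor-side genes were mixed. Of 11 co-receptors and helpers of receptor folding and trafficking 4 were higher and 3 lower (median 0.10). Ly96, the partner of Tlr4, stood at 4.73 to 7.03 CPM in colon and 1.94 to 2.74 CPM in LPMC and was lower (-1.35, SE 0.18, adjusted p = 0.000133). Cd14, which hands lipopolysaccharide to Tlr4, was higher in LPMC (0.56, SE 0.21, adjusted p = 0.0462), as was the scavenger receptor Cd36, a co-receptor of Tlr2 with Tlr6 (3.01, SE 0.40, adjusted p = 0.000152). Hsp90b1, the chaperone needed to fold most of these receptors, was higher by 0.52 (SE 0.12, adjusted p = 0.00513).

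Of 15 adaptors and kinases 5 were higher and 2 lower (median 0.10). The kinase Irak2 stood at 28.5 to 58.3 CPM in colon and 89.3 to 105 CPM in LPMC (1.15, SE 0.16, adjusted p = 0.000211), whereas Tirap, which brings Myd88 to Tlr2 and Tlr4, was lower in LPMC (-0.58, SE 0.09, adjusted p = 0.000432). Tab2, an adaptor of the kinase Map3k7 (TAK1), was higher by 0.50 (SE 0.09, adjusted p = 0.00113). Of 12 genes that restrain the pathway 4 were higher and 2 lower (median 0.23). Tnfaip3 (A20), a ubiquitin editor, stood at 92.0 to 159 CPM in colon and 915 to 1119 CPM in LPMC (2.91, SE 0.13, adjusted p = 1.87e-07), and the inactive kinase Irak3 was higher by 1.99 (SE 0.32, adjusted p = 0.000498) and Rnf216 by 0.54 (SE 0.09, adjusted p = 0.000453).

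At the far end of the pathway most genes were higher in LPMC. Of 10 transcription factors 5 were higher and 2 lower (median 0.83), led by Nfkbiz (1.73, SE 0.10, adjusted p = 7.28e-07), Atf3 (4.43, SE 0.28, adjusted p = 1.2e-06) and the NF-kB subunit Rela (1.30, SE 0.12, adjusted p = 1.49e-05). Of 16 cytokines and other induced genes 14 were higher and 1, Nos2, was lower (median 3.52), and Cxcl10 did not pass. Tnf stood at 17.4 to 56.4 CPM in colon and 176 to 278 CPM in LPMC (3.16, SE 0.22, adjusted p = 2.47e-06). Il10 (5.84, SE 0.44, adjusted p = 3.89e-06) and Nfkbia, the inhibitor of NF-kB (2.58, SE 0.11, adjusted p = 1.32e-07), were also higher. Ifnb1 had 0 counts in every colon library and 0.390 to 2.00 CPM in the LPMC libraries, at least 21.4-fold higher against a floor of 3 counts per colon library, and the list's median is the same with Ifnb1 at that bound. As given above, immediate early and heat shock genes moved with this group, by a median of 4.20.

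Other receptors for microbial molecules were compared with the Toll-like family. Of 14 cytosolic and lectin receptors 5 were higher in LPMC and 3 lower (median 0.30). Naip1, of the family that senses bacterial secretion systems and flagellin in the cytosol, stood at 201 to 461 CPM in colon and 85.8 to 142 CPM in LPMC (-1.72, SE 0.16, adjusted p = 1.54e-05). The DNA sensor Aim2 (-0.98, SE 0.12, adjusted p = 8.26e-05) and the RNA sensor Ifih1 (-0.67, SE 0.10, adjusted p = 0.000331) were lower too. Of the mouse Toll-like receptor genes outside the 10, Tlr12 was at -1.03 (SE 0.48, adjusted p = 0.0935) and Tlr11 at -0.87 (SE 0.62, adjusted p = 0.259).

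**Figure D5:**
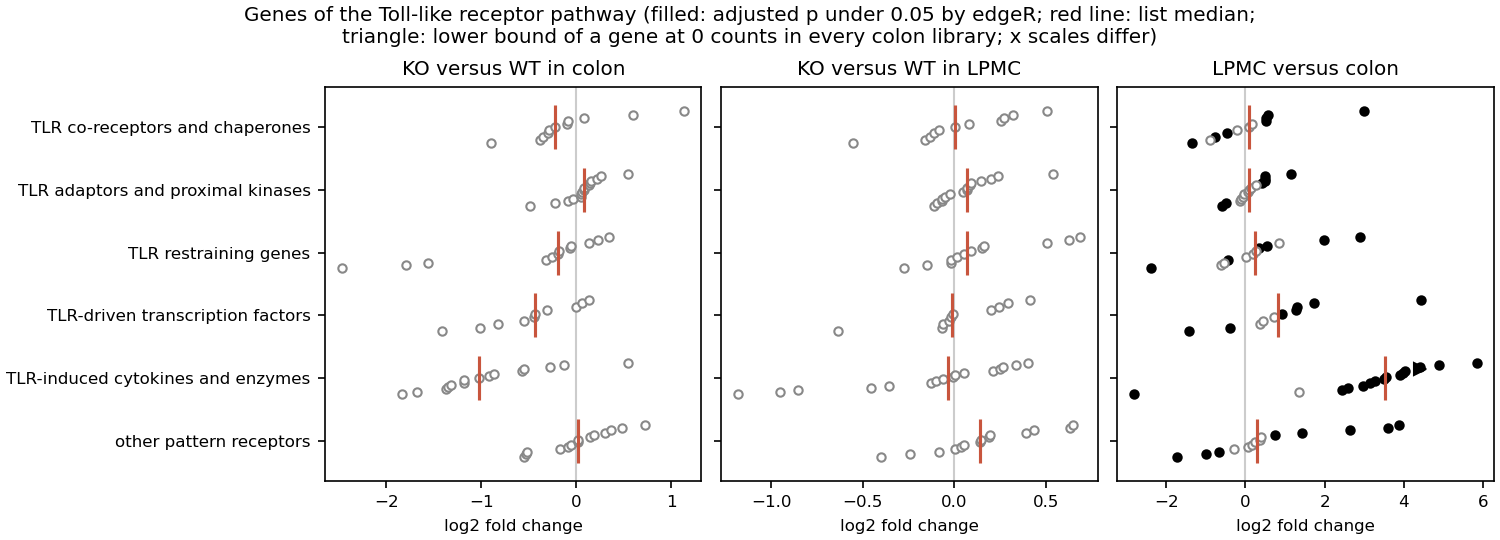
Log2 fold change of the 78 pathway genes in the 3 comparisons, on x axes of different scale, with filled points for genes that passed an adjusted p of 0.05, a red line at each list's median and a triangle at the lower bound for Ifnb1. Between LPMC and colon the induced cytokine genes lie to the right of 0 (median 3.52), while co-receptors and adaptors spread to both sides (medians 0.10), and between KO and WT no point is filled.

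Between KO and WT none of the 78 pathway genes passed edgeR's test in either tissue or in the interaction. In colon 77 were tested, of which 2 had an unadjusted p under 0.05 with KO higher and 8 with KO lower, where 7.79% of all genes did in either direction. The log2 fold change was negative for 49 of the 77 (median -0.17) and for 9562 of all 19303 genes (median 0.01). The induced cytokine genes had a median of -1.02 in colon, with Tnf at -1.02, Cxcl1 at -1.18 and Nfkbia at -0.55, none of which passed (adjusted p at least 0.632). Colon WT libraries spread widely for some pathway genes, such as Socs1 (134 ± 128 CPM, SD, n = 3). They spread little for others, such as Nfkbia (214 ± 13.8 CPM). As given above, cell type sums set colon WT replicate 1 and colon KO replicate 2 apart. The part of these cells in the pathway values was not tested. On the receptor side the lowest p-values in colon were those of the trafficking chaperones Cnpy3 (-0.38, SE 0.16) and Unc93b1 (-0.90, SE 0.37), and among adaptors those of Tirap (0.55, SE 0.16) and Myd88 (-0.48, SE 0.22). In LPMC the median was 0.05 over 78 genes, against -0.0041 over all genes, and 1 had an unadjusted p under 0.05 with KO higher and 4 with KO lower, where 2.64% of all genes did. Cxcl1 (-0.95, SE 0.15), Nfkbiz (-0.64, SE 0.12) and Irak3 (0.51, SE 0.16) had the lowest p-values of their lists, each with an adjusted p of 0.998. For the interaction the median was 0.20, against -0.01 over all genes, and 2 genes on the positive and 3 on the negative side had an unadjusted p under 0.05, where 4.69% of all genes did.

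Genes whose pattern over the 12 libraries was most like that of each receptor were found by the root mean square difference of centred log2 CPM, as a description. The libraries share tissue and composition, so that many genes follow one another. Tlr6 and Tlr7 had the same nearest gene, Cyth4 (0.18 and 0.27), followed for Tlr7 by Nckap1l (0.29). Tlr13 was nearest to Ifi207 and Cmklr1 (both 0.28), and Tlr9 to Tm6sf1 (0.43) and Wdfy4 (0.51). Tlr4 was nearest to the junction gene Tjp1 (0.15) and to Lpp (0.19), and Tlr3 to Elmod2 (0.14). Tlr1 was nearest to Asah1 (0.13), and Tlr2 to Map3k3 (0.23). Tlr5 was nearest to Slc8a1 (0.31), Irs2 (0.36) and Prox1 (0.36). Among the receptors themselves the nearest pairs were Tlr3 with Tlr4 (0.24) and Tlr6 with Tlr7 (0.40). Tlr1, Tlr2, Tlr5 and Tlr9 were not the nearest neighbour of any receptor. The measure is not scaled to a gene's own spread around its mean, so genes that vary little lie near one another. That spread was 0.26 for Tlr3 and 0.36 for Tlr4, against 1.02 for Tlr6 and 1.32 for Tlr7.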

How the data were processed

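Poly(A) RNA was sequenced from 12 libraries, 3 per group, with a strand-keeping TruSeq kit per the labels' protocols. The authors deposited whole-number counts per Ensembl gene, with no normalization. STAR and the build GRCm38 (mm10) are named per the submitters' processing notes. How reads were counted, with which annotation and which strand setting, is not given in the sources used here. Of 54109 identifiers 54042 matched GENCODE M21, and every row names a gene. Between 66.2 and 76.1% of low counts per library were even, the pattern of mates counted one by one, which makes counting error larger than whole reads would give.

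Differences were tested on the deposited counts with edgeR 4.0.16 in R 4.3.3 (TMM factors, filterByExpr with a minimum count of 10, robust quasi-likelihood F-test, Benjamini-Hochberg adjustment over all genes tested, threshold 0.05). Fits of KO against WT used the 6 libraries of 1 tissue, and those of the interaction and of LPMC against colon used all 12. A standard error is the size of the log2 fold change over the square root of its F value. CPM values carry TMM factors, and RPKM divides CPM by the length of all annotated exons. DESeq2 1.42.0, its size factors in edgeR, no filter, all 12 libraries, a replicate block, single genotypes and leaving out each library were alternatives. Both tools were tested on simulated data first.

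The receptor genes and all gene lists were chosen with earlier results of these data known. Named were all 10 receptors, up to 3 genes of lowest p per pathway list and comparison, and the 3 genes nearest in pattern to each receptor, of which the text gives the leading ones. Cd14, Nos2, Cxcl10, Ifnb1 and Gm45542 were named after their values were seen. Motif matches were sought with no mismatch.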

Additional observations from a re-analysis of the deposited data

How the results depend on the processing

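Over the alternatives that kept all libraries or 1 genotype, a value was unchanged if it kept its direction and side of the threshold. The knockout effects of Tlr5 and their difference between tissues, which carry no test, were unchanged if within the main fit's standard error. By these rules 190 of 200 values of single receptor genes were unchanged. Of the others, 2 turned sign, Tlr1 in colon KO (0.012 with the replicate block) and Tlr3 between tissues (0.044 in WT libraries only), 2 passed (Tlr7 at 1.62, adjusted p = 0.00699, and Tlr9 at 1.97, adjusted p = 0.0174, between tissues with the replicate block) and 6 lost their call between tissues, 4 of them (Tlr2, Tlr6, Tlr8 and Tlr13) in KO libraries only. Receptor genes called between tissues numbered 2 in KO libraries only, 5 in WT libraries only, 8 with the replicate block and 4 to 7 without 1 library. Genes called in colon numbered 33 by DESeq2 (19 higher, 14 lower), 2 with all 12 libraries, 0 with the replicate block and 0 to 1 without 1 library. In LPMC there were 34 by DESeq2 (8 higher, 26 lower), 4 without a filter, 0 with the replicate block and 1 to 2 without 1 library. DESeq2 called 3 genes for the interaction. Between tissues 6393 genes were called in WT libraries only, 5053 in KO libraries only and 9451 to 10790 without 1 library, from fewer libraries each time. Without 1 library, log2 fold changes that turned sign ran, in colon KO, from -0.21 to 0.19 for Tlr1, -0.95 to 0.28 for Tlr6, -1.49 to 0.48 for Tlr7, -1.79 to 1.86 for Tlr9 and -0.035 to 1.01 for Tlr13. In LPMC KO they ran from -0.21 to 0.11 for Tlr2, -0.18 to 0.19 for Tlr3, -0.17 to 0.30 for Tlr4 and -0.074 to 0.71 for Tlr7. For the interaction they ran from -0.19 to 1.80 for Tlr7, -1.23 to 2.44 for Tlr9 and -0.47 to 0.62 for Tlr13, and between tissues from -0.23 to 0.0052 for Tlr3. Apart from what the numbers of libraries and genes set, the cause was not tested.

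Whether replicate numbers pair libraries is unknown. The labels do not say that a number marks a shared animal, and libraries were treated as unpaired because not every pair correlated above 0.1. Deviations of same-numbered libraries correlated at -0.133 to 0.0416 for KO with WT colon and -0.230 to 0.240 for KO with WT LPMC. Between colon and LPMC the values were 0.0807 to 0.163 in WT, where each of 3 libraries correlated best with its own number, and 0.064 to 0.303 in KO, where 2 of 3 did, a hint from the data and not from the design. Tlr5 and Tlr8 in colon rest on as few as 15 and 13 counts in a library, which limits what their levels can show.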
